A study of Mus musculus with 6 samples.

Results

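Imprinted genes are expressed mainly or wholly from the allele inherited from 1 parent, and 39 of them, drawn from 20 imprinted clusters or single loci on 11 chromosomes, are described here in primary mouse muscle stem cells with and without Cre-driven deletion at Med23. The 39 genes are those of a fixed list of names. Of the 32973 genes in the deposited table, 32 of the listed genes were found by symbol and 7 by Ensembl identifier, so each had a row. The list was chosen by name with the FPKM differences between knockout and control in these same libraries known, so the differences below describe the listed genes and support nothing beyond them. FPKM sums the RNA of both alleles, so the maternal and paternal labels used here are background knowledge and were not measured.

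Control cells (Ctrl, 3 libraries) had the genotype Med23flox/flox, with loxP sites flanking part of the gene for the Mediator subunit MED23. Knockout cells (Med23KO, 3 libraries) had the genotype Med23flox/flox::Pax7CreERT2, in which the Pax7 gene, active in muscle stem cells, drives a tamoxifen-dependent Cre recombinase. Both groups were sorted by flow cytometry from skeletal muscle and grown for 3 days on collagen, in a serum medium supplemented with bFGF, a growth factor for these cells; the labels give the treatment as none, and give no age or sex. No group carried Cre without the loxP sites, so effects of Cre and of Med23 loss cannot be told apart. The labels do not tell if each library is a different mouse or culture. The errors and p-values therefore measure the spread between libraries alone, which may be technical.

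The libraries had between 12017 and 12465 genes above 1 FPKM (fragments scaled to transcript length and library size), and their read depth is unknown. Med23 itself was at 10.2 to 11.7 FPKM in the controls and 4.23 to 5.86 FPKM in knockouts, 47.1% of the control mean. This is the level over the whole gene; the deleted stretch was not measured separately. Of 9 markers of muscle stem cells and myoblasts, Pax7 was at 34.5 to 57.7 FPKM in the controls and 32.4 to 60.3 FPKM in knockouts, and Calcr and Chrdl2 were at most 0.209 and 0.373 FPKM. Itga7 was lower in each knockout library, with a knockout mean at 59.0% of the control mean (limma adjusted p = 0.0515). Of the 7 of these markers that averaged at least 1 FPKM, 5 had a difference above 0 and 2 below. Cdh15 and Des, at 175.4% and 134.2% of the control mean, overlapped, and the authors' deposited q-values called both higher and Itga7 lower. The sum of the 9 overlapped, at 1126.6 to 1806.8 and 975.2 to 1725.9 FPKM. Most of it was Myod1 (948.3 ± 235.0 and 786.5 ± 212.9 FPKM, SD, n = 3). Replicate 3 often held the lowest value of its group. Among the 33 listed genes that averaged at least 1 FPKM, replicate 3 was the lowest library of its group in 20 in controls and in 26 in knockouts, and in both groups at once in 19 (57.6%), against 39.7% of the 12336 genes that averaged at least 1 FPKM. Several counts and differences are therefore given with and without Med23KO replicate 3.

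Imprints are laid down as DNA methylation in the germ line of 1 parent and are kept through later cell divisions, so that the alleles of a cluster are read unequally. Many imprinted genes act on growth. Paternally expressed genes such as Igf2 tend to promote it, and maternally expressed genes such as Cdkn1c to restrain it. Grb10, which restrains it from the maternal allele, is counted below among the genes whose expressed allele depends on tissue or isoform. A set of them, including H19, Igf2, Dlk1, Plagl1, Peg3, Mest and Cdkn1c, is known to be co-regulated and is called the imprinted gene network. In muscle, the long noncoding RNAs H19 and Meg3 have been linked to the behaviour of stem cells.

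Imprint methylation lies on CpG dinucleotides, at control regions that can be a promoter or lie between genes. Promoter stretches of 7 listed genes that were higher in every knockout library are shown so that their CpG content can be compared; not all of them are imprint control regions. The stretches come from the RefSeq promoter windows of GRCm38.p6 (250 bases before to 50 bases after a start site), were cut to the upstream part outside annotated untranslated regions, and are written 5′ to 3′ on the gene's strand with CpG in capitals. The first lies between the divergent start sites of Peg3 and Usp29.
Peg3 and Usp29, chr7:6730422-6730582, plus strand: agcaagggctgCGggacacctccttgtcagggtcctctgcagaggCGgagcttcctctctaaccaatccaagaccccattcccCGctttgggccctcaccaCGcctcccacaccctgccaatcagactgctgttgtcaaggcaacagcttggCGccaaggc
Plagl1, chr10:13090582-13090787, plus strand: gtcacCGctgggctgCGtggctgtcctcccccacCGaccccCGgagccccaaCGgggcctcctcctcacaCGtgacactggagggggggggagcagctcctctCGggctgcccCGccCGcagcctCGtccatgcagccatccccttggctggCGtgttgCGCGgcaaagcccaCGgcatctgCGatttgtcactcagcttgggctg
Zim1, chr7:6696451-6696682, minus strand: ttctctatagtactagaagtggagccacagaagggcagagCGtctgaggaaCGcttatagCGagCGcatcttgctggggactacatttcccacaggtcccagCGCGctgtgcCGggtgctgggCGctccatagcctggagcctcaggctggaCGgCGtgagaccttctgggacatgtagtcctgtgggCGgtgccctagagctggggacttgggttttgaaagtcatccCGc
Nnat, chr2:157559828-157560077, plus strand: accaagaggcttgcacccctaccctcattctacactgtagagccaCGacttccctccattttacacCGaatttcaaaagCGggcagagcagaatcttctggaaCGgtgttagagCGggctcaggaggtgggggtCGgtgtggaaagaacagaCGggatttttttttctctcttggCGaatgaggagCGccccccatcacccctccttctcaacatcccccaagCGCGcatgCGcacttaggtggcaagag
Meg3, chr12:109540746-109540995, plus strand: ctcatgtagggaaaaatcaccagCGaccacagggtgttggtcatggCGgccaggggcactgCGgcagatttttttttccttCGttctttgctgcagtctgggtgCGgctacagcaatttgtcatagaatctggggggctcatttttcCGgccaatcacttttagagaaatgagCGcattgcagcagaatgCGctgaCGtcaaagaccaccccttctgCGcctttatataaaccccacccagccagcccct
Rian, chr12:109603695-109603944, plus strand: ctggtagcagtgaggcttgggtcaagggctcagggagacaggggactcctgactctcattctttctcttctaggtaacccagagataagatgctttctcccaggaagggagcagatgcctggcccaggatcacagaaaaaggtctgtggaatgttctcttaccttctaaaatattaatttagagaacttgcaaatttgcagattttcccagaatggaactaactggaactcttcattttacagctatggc
The stretches held 5, 15, 12, 12, 10 and 0 CpG in the order shown. In the full window of 300 bases Plagl1 had 26 CpG, a number that 16.9% of all 32851 windows reached, and Rian had 0. Zdbf2, also higher in each knockout library, is not shown. Its full windows had 15 and 38 CpG, and 4.95% of all windows reached 38. CpG density thus ranged widely among these promoters. The hexamer TGCCGC, which the imprint-protecting zinc-finger protein ZFP57 binds when its CpG is methylated, was searched on both strands. It was in 11 of the 47 windows of the listed genes (23.4%) and in 11.6% of all windows. The hexamer itself holds a CpG, and the median CpG number was 13 in the windows of the listed genes and 7 in all windows. Some windows overlap, among them a pair of Mest windows that both hold it; with 1 window per gene the shares were 28.1% of 32 listed genes and 12.2% of all genes. Of the 6 full windows behind these stretches, those of Plagl1, Zim1, Nnat and Meg3 held it once and those of Usp29 and Rian did not. The Zdbf2 window with 15 CpG held it 3 times and the window with 38 CpG did not hold it. A match describes the letters of the window and shows no binding. The table held windows for 32 of the 39 genes; H19, Impact, Nap1l4, Peg10, Peg13, Sgce and Trappc9 were not among them.

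Several of the RNAs measured here are also the precursors of microRNAs. Of the mature mouse microRNAs in RefSeq, 41 lie inside 6 of the listed genes on the same strand: 26 in Mirg, 6 in Rian, 3 in Meg3, and 2 each in H19, Mest and Usp29. A few from H19, Meg3, Rian and Mest, the hosts described most closely below, are shown with the seed (bases 2 to 8) in capitals.
miR-675-5p: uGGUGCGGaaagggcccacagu
miR-675-3p: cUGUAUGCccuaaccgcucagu
miR-770-5p: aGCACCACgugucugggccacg
miR-770-3p: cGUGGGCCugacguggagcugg
miR-370-3p: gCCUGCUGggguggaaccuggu
miR-335-5p: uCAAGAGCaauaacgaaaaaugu
miR-335-3p: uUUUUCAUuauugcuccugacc
In the GENCODE vM21 annotation the miR-675 and miR-770 arms lie in exons of H19 and Meg3, and the miR-370 and miR-335 arms in introns of Rian and Mest. No seed is shared among the 7 sequences shown, and among all 41 only 2 share one. The libraries were made from poly(A) RNA, so the values below are for the host RNAs and not for the mature microRNAs.

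Control muscle stem cells expressed the imprinted genes over a wide range. H19, a maternally expressed long noncoding RNA, was the highest, at 1331, 1301 and 1010 FPKM in control replicates 1, 2 and 3, above 99.5% of the genes tested. Gnas, which encodes the stimulatory G protein alpha subunit, followed at 695.8 ± 58.3 FPKM (SD, n = 3). The tetraspanin gene Cd81 (290.3 ± 30.5 FPKM), the paternally expressed zinc-finger gene Peg3 (223.6 ± 24.5 FPKM) and Mest (101.9 ± 8.77 FPKM), a paternally expressed gene of the hydrolase fold family, came next. Each of these 5 had all 3 control values above those of the gene after it.

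Below them, 14 genes averaged 10 to 100 FPKM, 12 averaged 1 to 10 FPKM and 8 were under 1 FPKM. Of the 38 neighbouring pairs in this order, 13 did not overlap, so most neighbours could not be separated by their library values. The zinc-finger transcription factor gene Plagl1 (64.8 ± 9.90 FPKM), the histone chaperone gene Nap1l4 (64.5 ± 1.73 FPKM) and Grb10 (60.0 ± 1.62 FPKM), an adaptor that binds the insulin and insulin-like growth factor receptors, lay close together. Dlk1, a paternally expressed transmembrane protein of the Notch ligand type, was close to 0 in every library, at 0.0608, 0.152 and 0.0611 FPKM in the controls and 0.105, 0.0382 and 0.0681 FPKM in knockouts. Phlda2, Slc22a18 and Rasgrf1 were at most 0.174 FPKM, and Magel2 was listed at 0 in all 6 libraries.

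**Figure D1:**
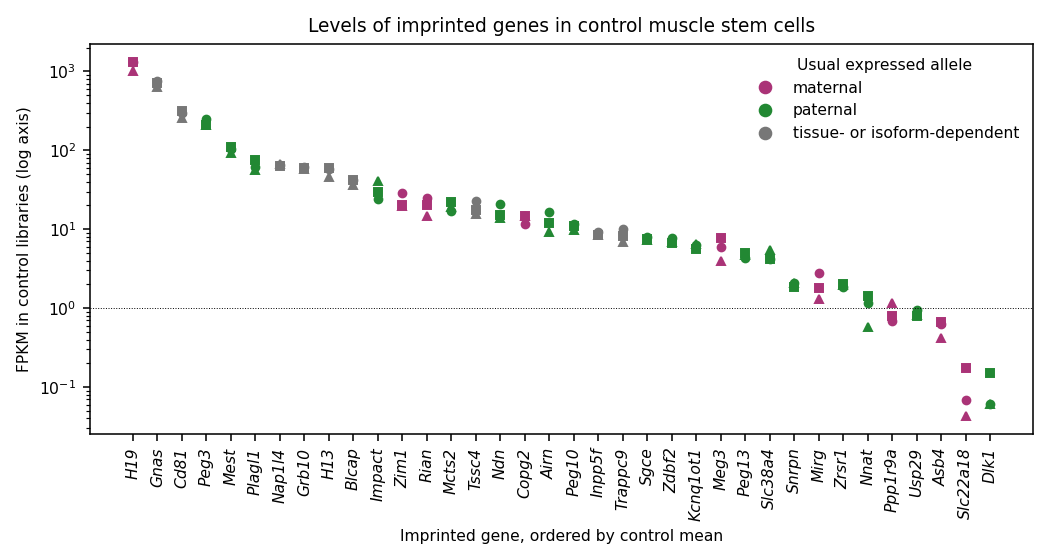
FPKM of the imprinted genes in the 3 control libraries (circle, square and triangle for replicates 1, 2 and 3; log axis), ordered by control mean and coloured by the allele usually expressed. Levels run from 1214 FPKM for H19 to 0.0911 FPKM for Dlk1 (means); Phlda2, Rasgrf1 and Magel2 had a control value of 0 and cannot be drawn on this axis, and the dotted line marks 1 FPKM.

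The comparison of knockout and control asks how each gene's RNA differed when Med23 was deleted. Of the 39 genes, 33 averaged at least 1 FPKM over the 6 libraries and entered a limma fit over all 12336 such genes; Phlda2, Slc22a18, Dlk1, Asb4, Magel2 and Rasgrf1 did not. In that fit 0 of the 33 passed a Benjamini-Hochberg adjusted p of 0.05, where 2.91% of all tested genes were called, 1.49% higher and 1.42% lower. The lowest adjusted p among them was 0.0602, for Nnat. At an unadjusted p of 0.05, 9 were higher and 1 was lower (8.84% and 10.9% of all tested genes), and the authors' deposited Cuffdiff q-values called 10 higher and 0 lower (8.34% and 7.27%).

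All 3 knockout values lay above all 3 control values in 9 of the 33 genes (27.3%): Meg3, Rian, Plagl1, Peg3, Usp29, Zim1, Sgce, Nnat and Zdbf2. The same was true of 10.0% of all tested genes. They lay below in 1, Mcts2 (14.7% of all tested genes). Without Med23KO replicate 3 the count higher was 22 (24.0% of all genes). Usp29 and Ppp1r9a averaged under 1 FPKM in controls and passed the filter on low values through their knockout libraries alone. Since the list was made with this contrast known as well, nothing is read from these shares. The median difference over the 33 was 0.21 on the log2(FPKM + 1) scale, which is used for every difference here and understates the change of low genes, with 26 above 0. Over all tested genes it was -0.03, with 45.1% above 0.

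Without Med23KO replicate 3, a total of 8 of the 33 passed the threshold, all higher: Meg3, Plagl1, Peg3, Zim1, Sgce, Peg10, Nnat and Zdbf2 (6.11% of all genes then tested were called higher). Without replicate 3 of both groups 9 passed, the same 8 and Rian (5.98% of all genes). Leaving out any of the other 5 libraries gave 0. The share of all genes called higher was then 0.381%, 0.0485% and 0.210% without Ctrl replicates 1, 2 and 3, and 0.130% and 0.0244% without Med23KO replicates 1 and 2. Under quantile normalization and under median scaling the same 5 passed, Meg3, Plagl1, Peg3, Sgce and Nnat (2.42% and 2.85% of all genes), and with library weights 9 passed higher (6.89%).

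The median over the listed genes relative to the control mean was 0.06, 0.00 and -0.13 in control replicates 1, 2 and 3, and 0.35, 0.31 and -0.03 in knockout replicates 1, 2 and 3. The median of knockout replicate 3 thus lay within the control range, while those of the other two lay above it. Without that library the difference went from 0.19 to 0.33 for Cd81, from 0.13 to 0.30 for Mirg, from 0.22 to 0.35 for Peg13, from 0.24 to 0.42 for Trappc9, and from -0.04 to -0.22 for Slc38a4. It went from 1.20 to 1.44 for Meg3, from 0.94 to 1.24 for Zim1 and from 0.77 to 0.94 for Plagl1. For Peg3 it went from 0.69 to 0.85, for Nnat from 1.02 to 1.18 and for Sgce from 0.50 to 0.62. For Zdbf2 it went from 0.48 to 0.63 and for H13 from 0.03 to 0.23. For Rian and Usp29 it fell from 0.76 to 0.73 and from 0.41 to 0.40. Igf2, which is not among the 39 genes, went from 1.88 to 2.32.

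**Figure D2:**
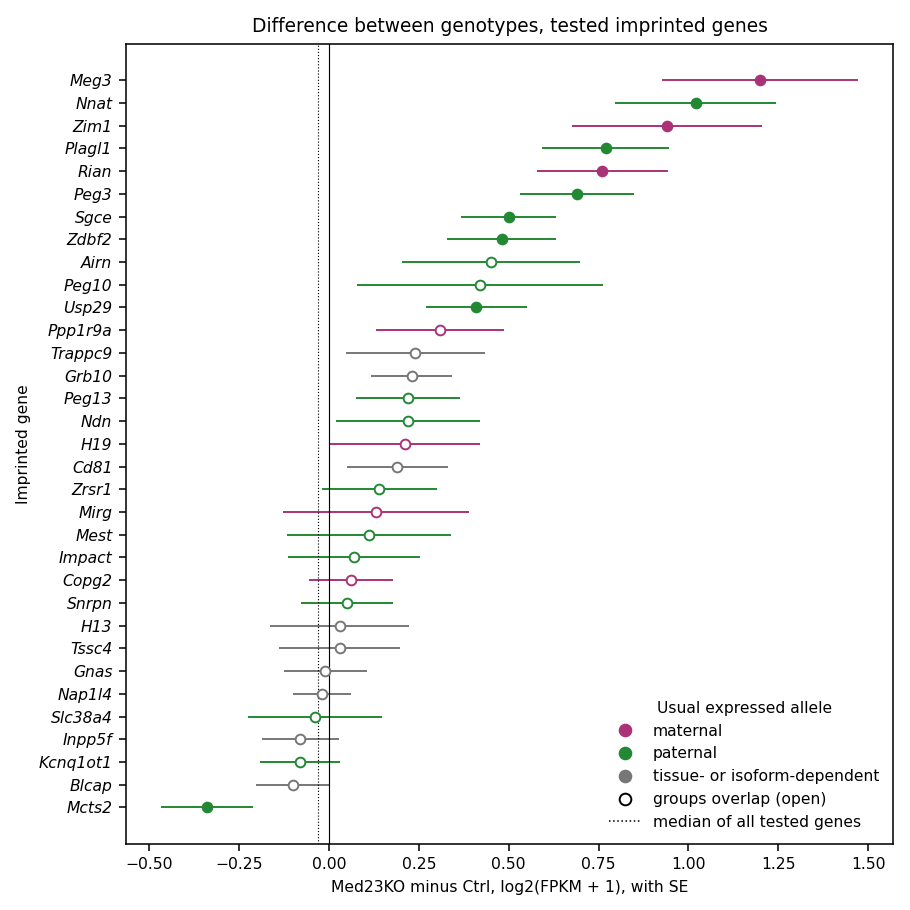
Difference between Med23KO and Ctrl on the log2(FPKM + 1) scale with its limma SE for the 33 tested imprinted genes, coloured by usual expressed allele; filled points mark genes whose groups do not overlap. Differences run from -0.34 for Mcts2 to 1.20 for Meg3, and the dotted line is the median of all tested genes, -0.03.

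Other cells in the culture can carry some of these RNAs, and in bulk RNA fewer cells of a type and less RNA per cell cannot be told apart. The summed FPKM of 15 myogenic differentiation markers was 197.2 to 268.1 in controls and 425.6 to 438.8 in knockouts. Of the 13 tested, 4 passed the test, all higher (1.49% of all tested genes). Without overlap 9 were higher (10.0% of all tested genes) and 4 overlapped. Tnnt2, at 74.4% of the control mean, was among those that overlapped. The authors' q-values called 10 of the 13 higher and 1, Tnnt2, lower (8.34% and 7.27% of all tested genes). The summed FPKM of 13 markers of fibro-adipogenic progenitors and fibroblasts was 195.2 to 249.5 in controls and 260.8 to 401.0 in knockouts. Most of that sum was Col3a1 (161.1 ± 21.9 and 241.8 ± 52.6 FPKM, SD, n = 3). Of the 10 tested, 0 passed the threshold and 4 were higher at an unadjusted limma p of 0.05 (2.91% and 8.84% of all tested genes). Without overlap 3 were higher (10.0% of all tested genes). The other 7 overlapped. Of the 10, 9 had a difference above 0, against 45.1% of all tested genes. The 1 below was Smoc2, whose knockout mean was 73.8% of the control mean. The authors' q-values called 5 higher and 0 lower (8.34% and 7.27% of all tested genes). None of the 13 was at 0 in every library. Pdgfra was at 1.28 to 2.65 FPKM in controls and 2.41 to 3.78 FPKM in knockouts. Both sums were higher in each knockout library, as were the 9 genes named above, and their part in those differences was not tested. Sums of endothelial, immune and Schwann markers overlapped between the groups. The endothelial marker Tek, too low to test, was lower in each knockout library (means 1.18 and 0.71 FPKM). The authors' q-values called Tek lower, and the other endothelial markers overlapped. Of the immune markers Ptprc was at most 0.0896 FPKM while Lyz2 was at 9.40 to 35.0 FPKM, highest in Med23KO replicate 3, and Cd68 at 1.30 to 2.37 FPKM. The sum of 6 pericyte and smooth muscle markers overlapped too, but nearly all of it was Des, which is also among the muscle stem cell markers. Cspg4, the other of the 2 tested, had 9.36 ± 2.24 and 5.92 ± 1.68 FPKM with overlap, and the authors' q-values called it lower. Rgs5 and Abcc9, too low to test, were higher in each knockout library (means 0.603 and 1.04, and 0.202 and 0.621 FPKM). The sum of 4 tenocyte markers was lower in each knockout library, at 23.1 to 29.0 FPKM against 37.5 to 50.5 FPKM. Most of that sum was Scx (40.8 ± 7.00 and 22.5 ± 2.53 FPKM; SD, n = 3), and Mkx overlapped (3.32 ± 0.447 and 3.85 ± 0.830 FPKM). Scx passed the test as lower (limma adjusted p = 0.0344), where 1.42% of all tested genes were called lower.

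On chromosome 12, 2 of the 3 maternally expressed RNAs of the Dlk1-Meg3 cluster were higher in each knockout library and Mirg was not. Meg3 (chr12:109541001-109571726, mm10, plus strand), a long noncoding RNA that can act as a growth suppressor, had 6.04, 7.85 and 3.97 FPKM in the controls and 16.2, 18.7 and 10.0 FPKM in knockouts. The lowest knockout library was above the highest control library. The difference was 1.20 (SE 0.273), with the knockout mean at 251.6% of the control mean. Rian, the next of the 3 RNAs downstream and the host of small nucleolar RNAs, had 24.7, 20.3 and 14.5 FPKM in the controls and 30.6, 35.1 and 35.3 FPKM in knockouts (difference 0.76, SE 0.182). Again no library of 1 group reached into the other. Rian and Usp29 were those of the 9 genes in which knockout replicate 3 was not the lowest.

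Mirg, which lies farthest downstream of the 3 and hosts the largest group of microRNAs, had 2.79, 1.79 and 1.30 FPKM in the controls and 1.90, 3.36 and 1.54 FPKM in knockouts, and the groups overlapped. Relative to Meg3, Mirg was at 46.1%, 22.8% and 32.8% in controls and 11.7%, 18.0% and 15.4% in knockouts, so this ratio was lower in each knockout library. Rian relative to Meg3 overlapped, at 259.2% to 409.0% in controls and 188.4% to 352.4% in knockouts.

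In the H19-Igf2 cluster on chromosome 7, H19 overlapped between groups and Igf2 did not. H19 (chr7:142575529-142578143, mm10, minus strand) had 1331, 1301 and 1010 FPKM in the controls and 1837, 1415 and 1048 FPKM in knockouts. The first 2 knockout libraries were above all controls and replicate 3 was not, and the difference was 0.21 (SE 0.21), or 0.42 without Med23KO replicate 3. The insulin-like growth factor 2 gene Igf2, which is not among the 39 genes and is expressed from the paternal allele under enhancers it shares with H19, had 116.9, 98.3 and 52.0 FPKM in the controls and 468.4, 385.2 and 168.2 FPKM in knockouts. Relative to H19, Igf2 was 7.16 ± 1.85% in controls and 22.9 ± 6.02% in knockouts (SD, n = 3), and the lowest knockout ratio, 16.0%, was above the highest control ratio, 8.78%.

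In the neighbouring Kcnq1ot1 domain the listed genes differed little. The paternally expressed noncoding RNA Kcnq1ot1, which silences genes of the domain on its own allele, had 6.12 ± 0.390 FPKM in the controls and 5.72 ± 0.407 FPKM in knockouts (SD, n = 3). Nap1l4, Tssc4 and Cd81, whose imprinting is known mainly from placenta, had differences of -0.02, 0.03 and 0.19, and Phlda2 and Slc22a18 were close to 0. The cyclin-dependent kinase inhibitor gene Cdkn1c of the same domain, not among the 39 genes, had 2.46, 1.75 and 1.06 FPKM in the controls and 6.97, 7.07 and 5.09 FPKM in knockouts, a difference of 1.44 (SE 0.216). It passed the threshold over all genes (limma adjusted p = 0.0222, and 0.0017 to 0.137 over the alternative fits). It did not pass without the filter on low values (limma adjusted p = 0.0602), without Ctrl replicate 2 or 3, or without Med23KO replicate 1 or 2.

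In the Peg3 cluster on proximal chromosome 7, Peg3 and Zim1 were higher in each knockout library, as was the very low Usp29. Peg3 (chr7:6703892-6730431, mm10, minus strand), a paternally expressed zinc-finger protein that marks progenitor cells in several tissues, had 251.8, 211.7 and 207.2 FPKM in the controls and 433.6, 371.8 and 289.8 FPKM in knockouts (difference 0.69, SE 0.158). Usp29, a ubiquitin protease gene read from the opposite strand beside it, was far lower, at 0.934, 0.797 and 0.821 FPKM in the controls and 1.61, 1.28 and 1.51 FPKM in knockouts (difference 0.41, SE 0.140). Its level was 0.381 ± 0.0133% of that of Peg3 in controls and 0.412 ± 0.0946% in knockouts (SD, n = 3). Zim1, a zinc-finger gene usually expressed from the other, maternal allele, had 28.5, 20.3 and 19.5 FPKM in the controls and 58.0, 50.6 and 28.9 FPKM in knockouts (difference 0.94, SE 0.264). Its lowest knockout value was barely above its highest control value. The Zim1 to Peg3 ratio overlapped between groups, at 9.40% to 11.3% and 9.98% to 13.6%.

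Plagl1 (chr10:13060504-13131694, mm10, plus strand), a paternally expressed transcription factor that is known to regulate other imprinted genes, had 61.5, 75.9 and 57.0 FPKM in the controls and 134.2, 115.0 and 87.5 FPKM in knockouts. The groups did not overlap, and the difference was 0.77 (SE 0.176), with a knockout mean at 173.2% of the control mean. Nnat, a paternally expressed proteolipid gene that lies inside Blcap on the opposite strand, had 1.15, 1.42 and 0.582 FPKM in the controls and 4.09, 3.14 and 2.29 FPKM in knockouts (difference 1.02, SE 0.224). Its host Blcap had 40.2 ± 3.17 and 37.3 ± 2.43 FPKM, so Nnat was 2.57 ± 0.904% of Blcap in controls and 8.45 ± 2.12% in knockouts (SD, n = 3), without overlap. The 2445 bases of Nnat all lie within Blcap, and without a stated strand option the pair may share fragments; the same holds for the 912 bases that Mest and Copg2 share. Nnat was low in both groups, and the authors' deposited table did not call it.

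**Figure D3:**
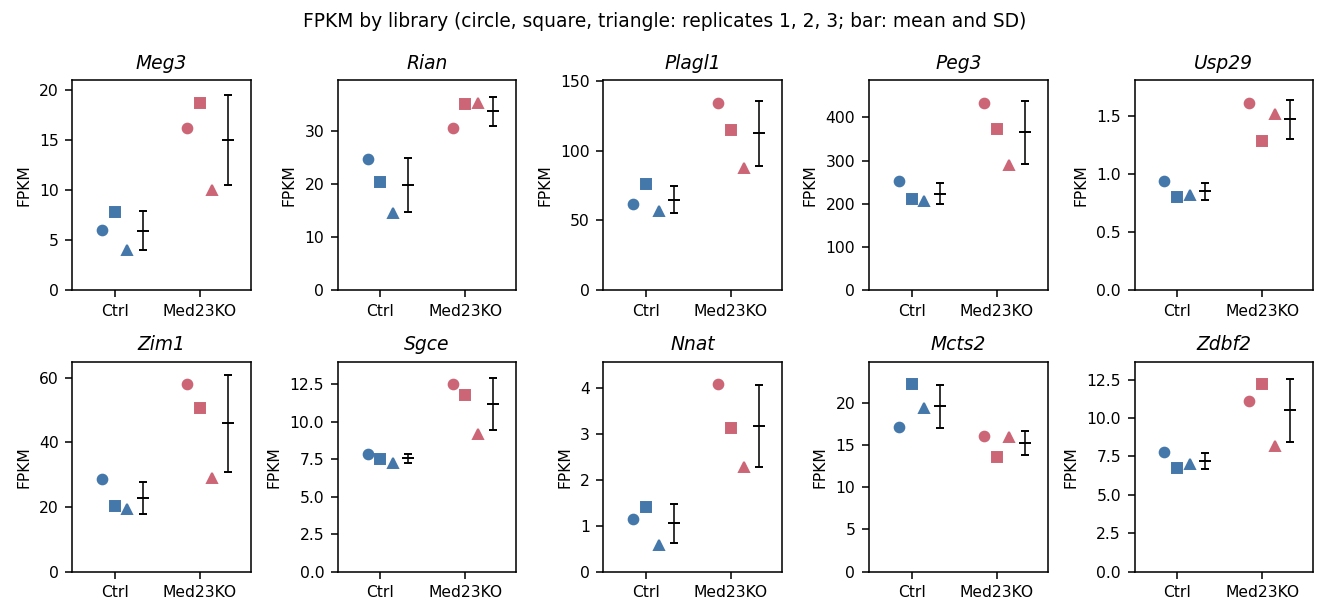
FPKM in each library of the 10 tested imprinted genes whose groups do not overlap (circle, square and triangle for replicates 1, 2 and 3; black bar, mean and SD; axes start at 0). In 9 of them the 3 knockout values lie above the 3 control values, and in Mcts2 they lie below.

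On chromosome 6, the adjacent genes Sgce and Peg10 are read in opposite directions from neighbouring start sites and are both paternally expressed. Sgce, which encodes epsilon-sarcoglycan of the dystrophin-associated complex, had 7.87, 7.54 and 7.22 FPKM in the controls and 12.5, 11.8 and 9.19 FPKM in knockouts (difference 0.50, SE 0.132). Peg10, derived from a retrotransposon, had 11.8, 11.0 and 9.73 FPKM in the controls and 23.0, 17.9 and 7.63 FPKM in knockouts. Knockout replicate 3 was below every control library while the other two were above, which gave a difference of 0.42 (SE 0.343) with all libraries and 0.85 without that library. The Peg10 to Sgce ratio was 143.3 ± 7.63% in controls and 139.8 ± 51.9% in knockouts (SD, n = 3). Farther along, the protein phosphatase subunit gene Ppp1r9a had 0.881 ± 0.246 and 1.34 ± 0.334 FPKM, and the ankyrin-repeat gene Asb4, too low to test, had 0.415 to 0.671 FPKM in the controls and 0.135 to 0.307 FPKM in knockouts, without overlap.

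Mest had 103.5, 109.8 and 92.5 FPKM in the controls and 147.0, 119.4 and 75.0 FPKM in knockouts. As with Peg10, 2 knockout libraries were above and 1 below all controls, and the difference was 0.11 (SE 0.228), or 0.38 without Med23KO replicate 3. Copg2, the coatomer gene that overlaps the end of Mest on the opposite strand, had 13.6 ± 1.69 and 14.2 ± 0.596 FPKM (SD, n = 3). Zdbf2, a paternally expressed zinc-finger gene on chromosome 1, had 7.76, 6.77 and 6.98 FPKM in the controls and 11.1, 12.2 and 8.20 FPKM in knockouts (difference 0.48, SE 0.152), without overlap.

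Grb10 had 61.6, 60.1 and 58.3 FPKM in the controls and 76.8, 75.6 and 60.4 FPKM in knockouts. Knockout replicate 3 lay within the control range, and the difference was 0.23 (SE 0.113), or 0.34 without that library. The paternally expressed antisense RNA Airn, which silences Igf2r on its own allele, had 12.6 ± 3.62 FPKM in the controls and 17.6 ± 4.64 FPKM in knockouts, with overlap (difference 0.45, or 0.68 without Med23KO replicate 3), and the insulin-like growth factor 2 receptor gene Igf2r had 36.5 ± 5.47 and 59.2 ± 11.5 FPKM (SD, n = 3). Airn was 29.3% to 38.8% of Igf2r in controls and 26.7% to 31.4% in knockouts. The gene models of Airn and Igf2r overlap by 28354 bases on opposite strands, and whether fragments were counted by strand is not given in the sources used here, so the 2 values may share fragments.

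In the Snrpn-Ndn cluster on chromosome 7, which corresponds to the Prader-Willi region of humans, the groups of the tested genes overlapped. The growth suppressor gene Ndn had 20.7, 15.0 and 13.7 FPKM in the controls and 21.5, 21.9 and 14.7 FPKM in knockouts (difference 0.22, SE 0.200, or 0.40 without Med23KO replicate 3). Snrpn, a splicing factor gene, had 2.01 ± 0.149 and 2.13 ± 0.182 FPKM, nearly the values of Snurf from the same transcript unit (1.98 ± 0.146 and 2.12 ± 0.179 FPKM; SD, n = 3). Gnas had 750.4, 702.7 and 634.4 FPKM in the controls and 761.3, 704.6 and 609.7 FPKM in knockouts, a difference of -0.01 (SE 0.115).

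Mcts2, a paternally expressed retrogene inside an intron of H13, was the 1 tested gene lower in each knockout library, at 17.1, 22.2 and 19.4 FPKM in the controls and 16.1, 13.6 and 16.0 FPKM in knockouts (difference -0.34, SE 0.128). It is a copy of the X-linked gene Mcts1, so fragments may be split between them, and after quantile normalization or median scaling its groups overlapped. Its host H13, a signal peptide peptidase gene, had 54.3 ± 7.37 and 56.1 ± 13.5 FPKM (SD, n = 3). The noncoding RNA Peg13 and its host Trappc9 had differences of 0.22 and 0.24, and Peg13 was at 43.6% to 69.0% of Trappc9 in controls and 50.8% to 61.0% in knockouts. Zrsr1, Impact, Slc38a4 and Inpp5f had differences between -0.08 and 0.14, all with overlapping groups.

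**Figure D4:**
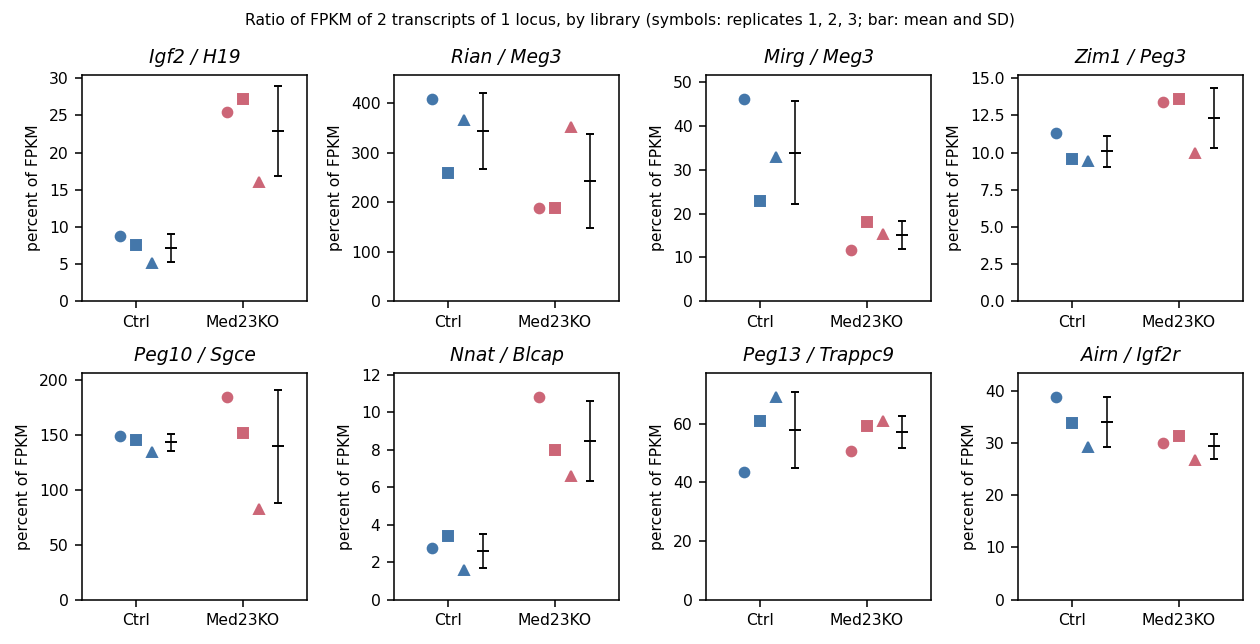
Ratio of the FPKM of 2 transcripts of 1 locus, in percent, in each library (circle, square and triangle for replicates 1, 2 and 3; black bar, mean and SD; axes start at 0). Igf2 relative to H19 and Nnat relative to Blcap were higher, and Mirg relative to Meg3 lower, in each knockout library; the other 5 ratios overlapped.

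Set out by the allele usually expressed, the genes higher in each knockout library were of both kinds. Of the 10 maternally expressed genes, 7 were tested, 3 were higher without overlap and 4 overlapped, with a median difference of 0.31. Of the 20 paternally expressed genes, 17 were tested, 6 were higher without overlap, 1 was lower and 10 overlapped, with a median of 0.22. The 9 genes whose expressed allele depends on tissue or isoform were all tested, all overlapped, and had a median of 0.03. Over all tested genes 10.0% were higher and 14.7% lower without overlap. The difference between these allele groups was not tested. The maternal median of 0.31 is the value of Ppp1r9a, and the 6 paternally expressed genes include Usp29. Both averaged under 1 FPKM in controls and passed the filter on low values through their knockout libraries alone. By library, the maternally expressed genes had medians of 0.61, 0.59 and 0.07 relative to the control mean in knockout replicates 1, 2 and 3, and the paternally expressed genes 0.50, 0.40 and 0.00.

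**Figure D5:**
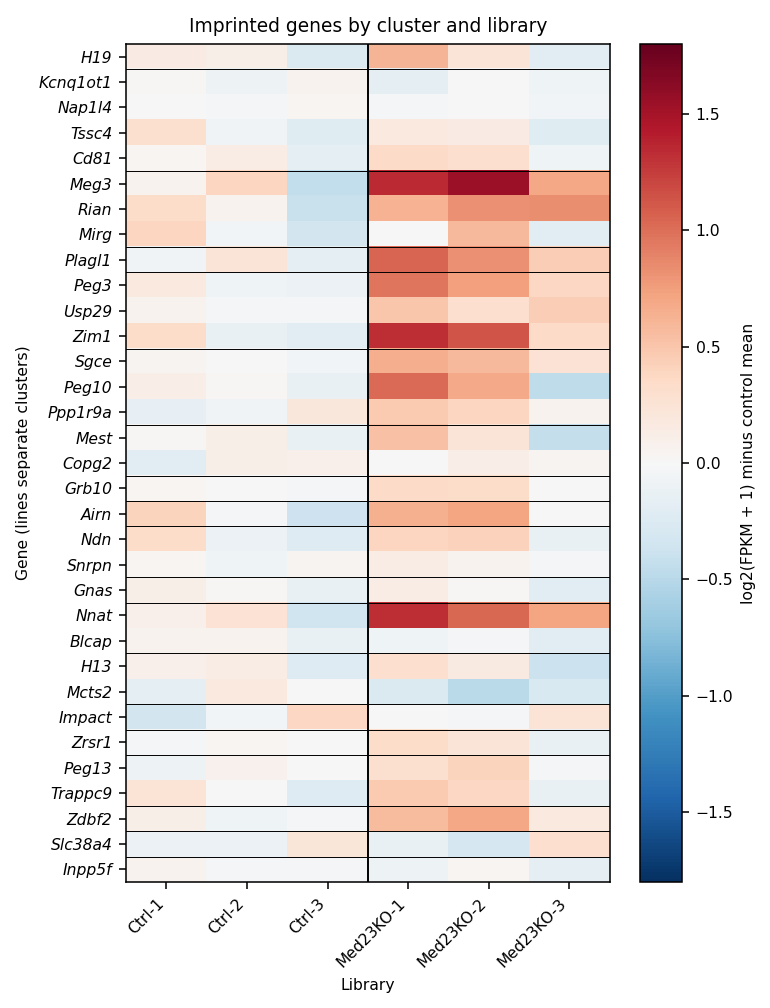
Each tested imprinted gene in each library as log2(FPKM + 1) minus its control mean (red higher, blue lower), with horizontal lines between clusters. Meg3, Plagl1, Peg3, Zim1 and Nnat are red in all 3 knockout libraries, and in 26 of the 33 genes knockout replicate 3 is the lowest of its group.

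Of 40 further genes reported as imprinted in mouse, 39 had a row and 22 were tested. Cdkn1c alone passed the test, higher, against 1.49% of all tested genes; 4 were higher and 1 lower at an unadjusted p of 0.05 (8.84% and 10.9% of all tested genes). The median difference was 0.11, and 4 were higher and 1 lower without overlap (10.0% and 14.7% of all tested genes). The 4 were Igf2, Cdkn1c, Igf2r and the paraoxonase gene Pon3 (8.85 ± 0.971 and 10.9 ± 0.0233 FPKM), and the lower was the chloride channel gene Ano1, at 12.9, 23.9 and 26.8 FPKM in the controls and 5.00, 6.70 and 12.6 FPKM in knockouts.

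Among 24 genes that set, keep or read imprints, 21 were tested and 0 passed the limma test; at an unadjusted p of 0.05, 1 was higher and 3 were lower (8.84% and 10.9% of all tested genes), and the authors' deposited q-values called 1 in each direction (8.34% and 7.27%). The median difference was -0.11. In 6 of the 21 (28.6%) all knockout values were below all control values, against 14.7% of all tested genes. Dnmt3b, one of them, averaged 0.912 FPKM in knockouts and passed the filter on low values through its controls alone. They were the corepressor gene Trim28 (160.7 ± 17.5 and 127.3 ± 13.1 FPKM), Uhrf1, which guides maintenance methylation (63.6 ± 3.67 and 51.6 ± 3.61 FPKM), the insulator gene Ctcf (34.2 ± 1.82 and 28.4 ± 1.95 FPKM), the methyltransferase genes Setdb1 and Dnmt3b, and Tet1 (SD, n = 3). Zfp57 had 5.68 ± 0.649 and 6.87 ± 0.956 FPKM and overlapped. These 6 genes were named after their values were seen.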

How the data were processed

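Poly(A) RNA was sequenced from 6 strand-specific libraries, per the labels' protocols. FastQC, cutadapt, STAR and Cuffdiff, with the mm10 build, were applied by the authors per the submitters' processing notes. The sources used here give no version, gene annotation or strand option for them. The deposited table gives FPKM per library, scaled by Cuffdiff, with the authors' own p-values and q-values. The identifiers of Airn and Kcnq1ot1 carry older versions than GENCODE vM21, which gave names and coordinates.

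All genes averaging 1 FPKM or more were fitted as log2(FPKM + 1) with limma 3.58.1 (R 4.3.3) with a mean-variance trend, two-sided, genotype as the single factor, with Benjamini-Hochberg adjustment over all 12336 genes. FPKM allow no count model, and depth is unknown, so precision is known from 3 libraries per group alone. The script was tested on simulated data. Members and lists were chosen with earlier results of these data known. Named genes were those past the threshold, those without overlap and a difference of at least 0.5, and 13 fixed names; Usp29, Mcts2 and the others with values were added after their values were seen. Promoter and microRNA sequences came from RefSeq (GRCm38.p6). Alternatives covered pseudocount, filter, scaling, variance model, library weights, a replicate block, left-out libraries and the authors' q-values.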

Additional observations from a re-analysis of the deposited data

How the results depend on the processing

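The median difference over the listed genes stayed above 0 in each alternative, from 0.12 without Ctrl replicate 3 or Med23KO replicate 1 to 0.35 without Med23KO replicate 3. The count of listed genes called higher, 0 with all libraries and 1 factor, was 5 under quantile normalization and 5 under median scaling (Meg3, Plagl1, Peg3, Sgce and Nnat in both), 9 with library weights (whose estimation stopped before full convergence), 9 with the replicate block (9.57% of all genes), 9 without replicate 3 of both groups and 10 by the authors' q-values. With 1 library left out it ran from 0 to 8, and 8 was reached without Med23KO replicate 3 alone. The count called lower was 1 with library weights (Mcts2) and 0 elsewhere. Of the 33 tested genes, 12 passed in at least 1 alternative fit, and 10 changed sign in at least 1, all with a difference of at most 0.13 in size. Genes without overlap, higher, were 22 without Med23KO replicate 3 (24.0% of all genes) and 23 without replicate 3 of both groups (27.0%), and 9 to 22 with 1 library left out; lower, they were 0 under quantile normalization and median scaling (13.3% and 12.0% of all genes), 1 to 3 with 1 library left out (17.0% to 21.8%) and 3 without replicate 3 of both groups (28.4%).

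Of the other imprinted genes, the count called higher (1) was 0 without a filter, 0 among genes of at least 5 FPKM, 3 under quantile normalization, median scaling, library weights, without replicate 3 of both groups and by the authors' q-values, 4 with the replicate block and 0 to 3 with 1 library left out; the count lower (0) was 1 with library weights, the replicate block, without replicate 3 of both groups and by the authors' q-values, and 0 to 1 with 1 library left out. Imprint regulators called higher (0) were 1 with library weights, the replicate block and the authors' q-values, and called lower (0) were 2, 4 and 1 in these. Of all genes, 2.42% were called higher under quantile normalization, 2.85% under median scaling, 6.89% with library weights and 9.57% with the replicate block. The share was 5.98% without replicate 3 of both groups and 0.0244% to 6.11% with 1 library left out. The authors' q-values called 8.34% higher and 7.27% lower. Shares called lower in the alternative fits were not counted, and nothing is read from these counts. The cause of the changes in the counts was not tested. The replicate numbers do not pair the samples by label: deviations of same-numbered libraries correlated at 0.437, -0.016 and 0.563, and Med23KO replicate 2 correlated best with Ctrl replicate 1 (0.337), so the block result rests on a shared number alone.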
